A study of Mus musculus with 90 samples.

Results

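Described here are 8 of the 23420 genes counted in 90 mouse T cell libraries. They were taken by symbol as Foxp3, the 4 Ikaros family genes Ikzf1, Ikzf2, Ikzf3 and Ikzf4, the interleukin-2 receptor gene Il2ra, the folate receptor 4 gene Folr4 and the actin-capping gene Capg. All 8 symbols were found in the count table, and levels are given as CPM, the gene count per 1000000 counts of the library.

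A first series of 30 libraries held regulatory T cells (Tregs) of genotype WT, sorted by expression of IL10 or of Ebi3 (a subunit of IL-35) or for neither (labelled DoubleNeg, here DN). Each Treg subset was taken from tumours (TIL), from non-draining lymph nodes (ndLN) and from a source labelled NaiveTcell (naive), and effector T cells (Teff) came from the last source alone, with 3 libraries in each of the 10 groups. A second series of 60 libraries held CD8 T cells from mice whose Tregs lacked IL-10, IL-35 or both, according to the design text. The genotype labels were DKO (4 libraries per population), Ebi3L (3), Il10 (2) and yfp (3), and yfp served as the comparison for the others. The tumour CD8 cells were sorted on PD1 and TIM3 into populations here called DP (PD1 high, TIM3 positive), SP (PD1 high, TIM3 negative), INT (PD1 intermediate, TIM3 negative) and NEG (negative for both), and NDLN cells came from non-draining lymph nodes. Libraries of 1 genotype that carry the same replicate number in their labels are called a numbered set here, and whether a numbered set came from the same mice is not stated. The CD8 labels also give a set name that spans 2 genotypes, called the labelled set here. Libraries of DKO replicate 1 share a labelled set with yfp libraries, as do those of Ebi3L replicates 2 and 3. The other DKO and Ebi3L libraries and all Il10 libraries do not. The labelled set was not a term of any fit. The tumour model, the ages, the allele or promoter behind each genotype label and any pooling of animals are not stated in these labels. The Treg libraries were made with the SMART-Seq v4 kit and the CD8 libraries with v3, so levels in the 2 series are set side by side below with no test between them.

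Sequencing depth, as counts per library in units of 1000000 (M), ran over 9.73 to 20.2 for Tregs and Teff and over 19.2 to 47.7 for CD8 cells. The limit set by 3 counts lay between 0.0629 and 0.308 CPM, and it covers counting error only. Cd4 was at 198 to 346 CPM in the 27 Treg libraries and at 341 to 546 CPM in Teff, while Cd8a reached at most 11.6 CPM in Tregs and was at 694 CPM or more in every CD8 library. Cd4 was at 0 in 46 of the 60 CD8 libraries and at most 4.26 CPM. Il10 was at 78.8 CPM or more in the 9 IL10 libraries and at most 5.14 CPM in the other Treg libraries. Ebi3 was at 4.92 to 15.7 CPM in the 9 Ebi3 libraries, against 0.05 to 6.7 CPM in IL10 and at most 2.87 CPM in DN libraries, so the Ebi3 and IL10 libraries overlapped in it. Pax5, a transcription factor that defines B cells, was at 0 in all 27 Treg libraries. The 6 listed B cell genes, Pax5 among them, nevertheless summed to 18 to 85.1 CPM in these libraries. One lymph node Ebi3 library had 190 CPM of the myeloid gene Lyz2, against 4.53 CPM or less in the other 2 of its group.

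Foxp3 is the transcription factor that specifies the Treg lineage, and Tregs restrain other T cells through surface molecules, cytokines and the capture of interleukin-2. Il2ra encodes CD25, the alpha chain that makes the interleukin-2 receptor bind with high affinity, and signalling through this receptor and STAT5 maintains Foxp3. The Ikaros proteins are zinc finger factors that recruit chromatin-remodelling and deacetylase complexes. Helios (Ikzf2) marks most Tregs made in the thymus, Eos (Ikzf4) is a corepressor partner of Foxp3, Aiolos (Ikzf3) is found in differentiated lymphocytes and Ikaros (Ikzf1) is expressed throughout the lymphoid lineages. Folr4, now named Izumo1r, marks Tregs and anergic CD4 cells on the surface of T cells, and Capg encodes a gelsolin-family protein that caps actin filaments.

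In the GRCm38.p6 annotation of RefSeq, Foxp3 lies on the plus strand at chrX:7579676-7595243, Il2ra on the plus strand at chr2:11642792-11693194, Folr4 on the minus strand at chr9:14885814-14903951 and Capg on the plus strand at chr6:72538282-72562983. The Ikaros genes are Ikzf1 on the plus strand at chr11:11684962-11772930, and on the minus strand Ikzf2 at chr1:69531207-69687351, Ikzf3 at chr11:98464610-98546031 and Ikzf4 at chr10:128630839-128669671. Promoter windows, which run from 250 bases before to 50 bases after an annotated start, were held for 5 of the 8 genes. Foxp3 and Ikzf1 had 2 windows each. Those of Foxp3, Il2ra, Folr4 and Capg are printed because Foxp3 and Il2ra define the cells and Folr4 and Capg changed between tumour and lymph node. The Ikzf1 windows are not printed, although Ikzf1 also changed between tumour and lymph node DN Tregs. Capitals mark matches on either strand to the Ikaros-type core TGGGAA, the Runx core TGTGGT or the STAT site TTCNNNGAA.
Foxp3 chrX:7579426-7579725, plus strand: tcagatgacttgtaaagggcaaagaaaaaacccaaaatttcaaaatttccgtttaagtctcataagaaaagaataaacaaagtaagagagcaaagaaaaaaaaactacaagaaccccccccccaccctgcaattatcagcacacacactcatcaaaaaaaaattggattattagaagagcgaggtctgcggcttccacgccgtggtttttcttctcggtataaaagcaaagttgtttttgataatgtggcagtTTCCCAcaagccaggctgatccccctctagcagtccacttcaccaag
Foxp3 chrX:7580233-7580532, plus strand: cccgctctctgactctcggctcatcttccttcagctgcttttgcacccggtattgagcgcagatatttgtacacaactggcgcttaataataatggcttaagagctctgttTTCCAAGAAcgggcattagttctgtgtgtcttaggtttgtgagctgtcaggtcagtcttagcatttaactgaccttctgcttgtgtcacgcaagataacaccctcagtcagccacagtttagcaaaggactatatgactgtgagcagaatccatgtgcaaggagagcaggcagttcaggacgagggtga
Il2ra chr2:11642542-11642841, plus strand: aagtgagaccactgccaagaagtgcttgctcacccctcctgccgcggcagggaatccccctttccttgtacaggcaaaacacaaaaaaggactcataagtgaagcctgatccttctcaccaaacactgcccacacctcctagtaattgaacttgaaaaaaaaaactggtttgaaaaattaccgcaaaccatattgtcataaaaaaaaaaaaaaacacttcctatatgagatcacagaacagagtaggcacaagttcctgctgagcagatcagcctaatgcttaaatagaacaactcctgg
Folr4 chr9:14903718-14904017, minus strand: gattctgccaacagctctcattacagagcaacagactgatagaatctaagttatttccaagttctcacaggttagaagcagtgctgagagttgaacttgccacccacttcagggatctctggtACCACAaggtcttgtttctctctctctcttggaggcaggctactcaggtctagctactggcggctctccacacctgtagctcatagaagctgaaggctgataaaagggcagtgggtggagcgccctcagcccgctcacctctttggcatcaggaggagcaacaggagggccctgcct
Capg chr6:72549397-72549696, plus strand: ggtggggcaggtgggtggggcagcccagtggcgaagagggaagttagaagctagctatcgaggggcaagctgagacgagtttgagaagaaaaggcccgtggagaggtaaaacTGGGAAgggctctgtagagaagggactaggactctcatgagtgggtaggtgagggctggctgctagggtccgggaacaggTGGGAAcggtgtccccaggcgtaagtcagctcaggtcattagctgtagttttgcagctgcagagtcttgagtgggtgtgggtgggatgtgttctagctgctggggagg
The first Foxp3 window held TGGGAA once on the minus strand, 4 bases after the start, and the Capg window held it at 138 and 58 bases before the start. TGGGAA occurred in 25.6% of the 32851 RefSeq promoter windows of this length, and TGTGGT, found once in the Folr4 window, in 16.8%. The STAT site TTCNNNGAA (8.3% of windows) was in the second Foxp3 window, 139 bases before its start, and not in the other 4 windows printed. It was also in the second Ikzf1 window, 19 bases after its start. The forkhead core GTAAACA (3.65%) and the AP-1 site TGANTCA (7.81%) were in none of the 5 windows printed. These matches describe letters in the sequence and show no binding.

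Foxp3 was present in every Treg library and lower in Teff, and in each Treg group it was highest in batch 2. It was at 67.7, 150 and 61.6 CPM in tumour IL10 Tregs (batches 1, 2 and 3), 49.6, 98.1 and 42.5 CPM in tumour Ebi3 Tregs and 68.1, 114 and 52.9 CPM in tumour DN Tregs. In the lymph node it was at 56.9, 115 and 49.8 CPM in IL10 Tregs, 37.2, 71.4 and 29.1 CPM in Ebi3 Tregs, against 67, 128 and 50.2 CPM in DN Tregs. It was at 54.6, 157 and 55 CPM in naive IL10 Tregs, 39.8, 107 and 44.7 CPM in naive Ebi3 Tregs and 62.6, 132 and 68.1 CPM in naive DN Tregs, against 29.7, 15.9 and 27.6 CPM in Teff. Every Treg group overlapped every other, and the lowest Treg library (lymph node Ebi3, batch 3) lay just under the highest Teff library. By group mean the order ran from 93.1 ± 49.5 CPM in tumour IL10 Tregs to 45.9 ± 22.5 CPM in lymph node Ebi3 Tregs and 24.4 ± 7.41 CPM in Teff (SD, n = 3 each), and no neighbours among the 9 Treg groups differed beyond their spread.

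**Figure D1:**
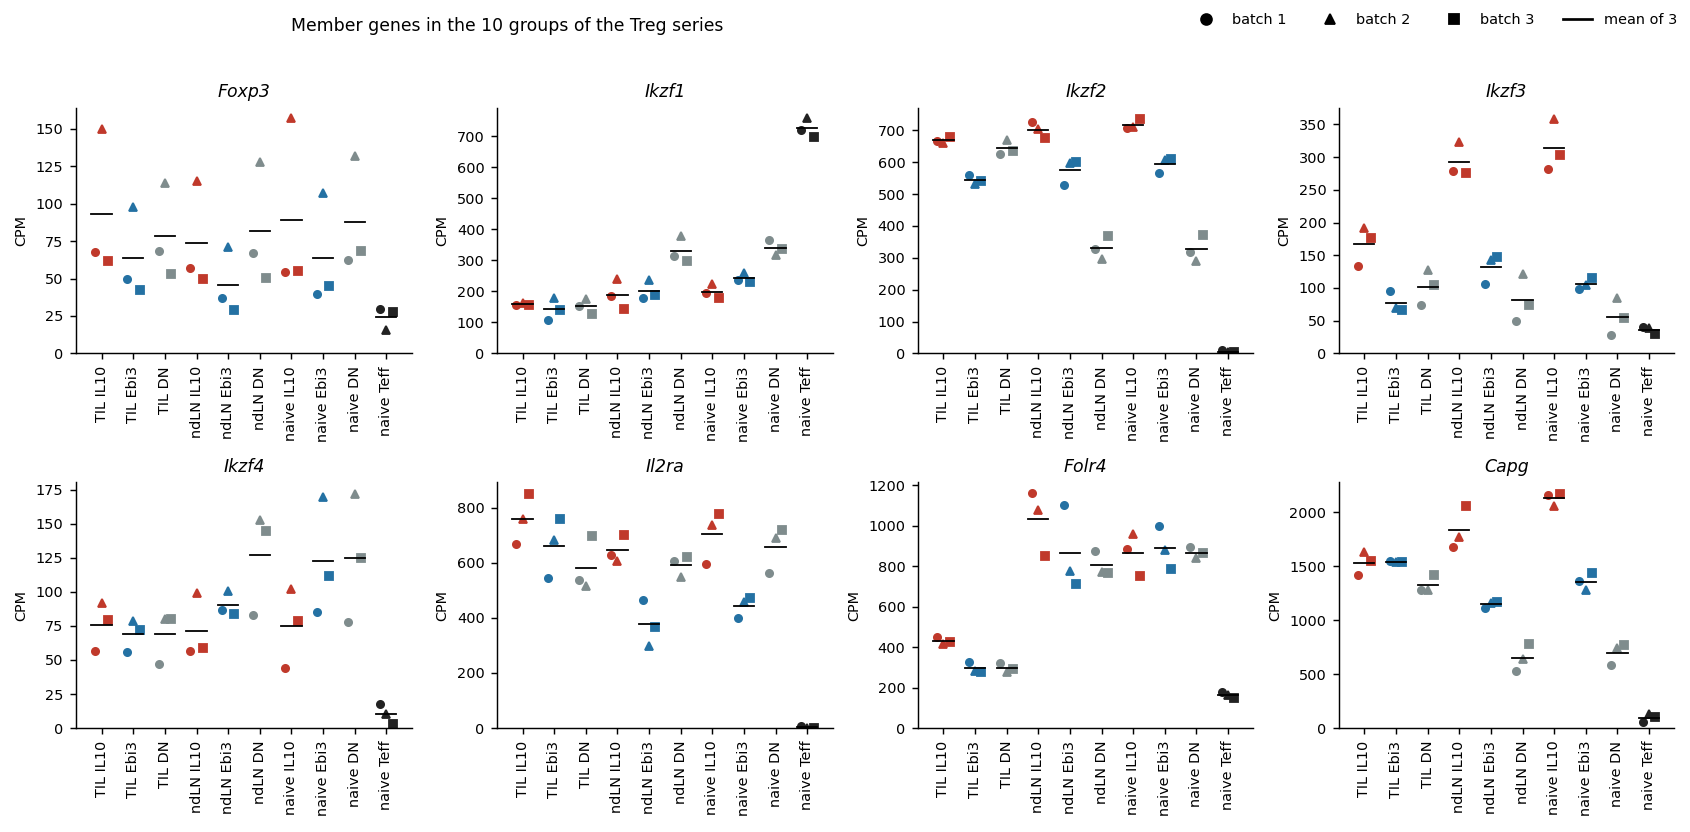
Levels of the 8 genes in the 30 libraries of the Treg series, in CPM of the library total on linear axes. Symbols mark batch 1, 2 or 3 and the bar is the mean of 3 libraries; red is IL10, blue Ebi3, grey DN and black Teff. Foxp3 is highest in batch 2 in each Treg group, Ikzf2 and Il2ra are at 9.48 CPM or less in Teff, and Folr4 is lower in the 3 tumour groups than in the 6 other Treg groups.

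Against Teff, Foxp3 was higher in all 3 naive subsets. The log2 fold change was 1.64 ± 0.26 (SE; adjusted p = 6.39e-05) in naive DN Tregs, 1.57 ± 0.27 (adjusted p = 3.74e-05) in naive IL10 Tregs and 1.05 ± 0.26 (adjusted p = 0.00319) in naive Ebi3 Tregs. Within batches 1, 2 and 3 the log2 ratio of naive DN Tregs to Teff was 1.08, 3.05 and 1.30, so the direction held in each and batch 2 gave the largest. Without batch 2 the Ebi3 difference was no longer called, at an adjusted p of 0.0619, and it was not called either in a fit without the batch block. In libraries of sorted cells, fewer cells of a type and less RNA per cell cannot be told apart.

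The 9 Treg groups shared one feature of Foxp3, its excess in batch 2. The batch 2 level divided by the mean of batches 1 and 3 was 1.88 to 2.87 (median 2.15), above 1 in 9 of 9 groups, while the median over all 9510 genes with enough signal was 1.09 and 50 genes (0.526%) had a larger median ratio than Foxp3. In Teff the same ratio was 0.556. The other members had median ratios of 1.35 for Ikzf4, 1.24 for Ikzf1, 1.23 for Ikzf3, 0.998 for Il2ra, 0.987 for Ikzf2, 0.976 for Capg and 0.949 for Folr4. Batch number is what the labels give, and what separated the batches is not stated. Because batch was a term of the fit, the Treg comparisons below are made within batches.

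**Figure D2:**
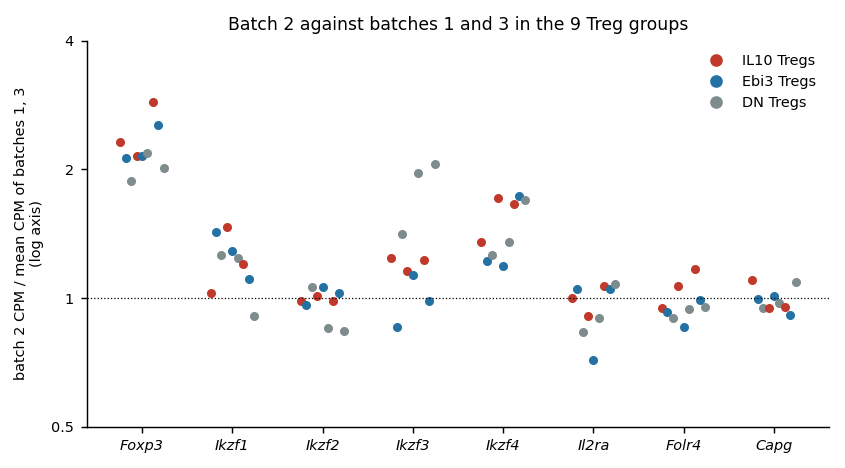
Batch 2 CPM divided by the mean CPM of batches 1 and 3 in the 9 Treg groups, for each member on a log axis; each point is a group, coloured by subset, and the dotted line marks a ratio of 1. All 9 Foxp3 points lie between 1.88 and 2.87, whereas those of Ikzf2, Il2ra, Folr4 and Capg lie around 1.

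Exons of Foxp3 overlap those of Ccdc22 and Ppp1r3f on the opposite strand, and the strand setting of the read counting is not given, so reads of these 3 genes cannot be fully told apart. Ccdc22 encodes an endosomal trafficking protein. It was at 55.3, 74.9 and 48.5 CPM in naive DN Tregs, against 98.1, 124 and 90.3 CPM in Teff, the opposite order to Foxp3. Its batch 2 ratio had a median of 1.8 and lay above 1 in 8 of 9 Treg groups. In the 60 CD8 libraries Ccdc22 was at 2.97 to 40.5 CPM, above 0 in each, while the median of Foxp3 was 0. Ppp1r3f, which encodes a regulatory subunit of a protein phosphatase, was at 14.5, 32.6 and 20.1 CPM in naive DN Tregs, against 8.25, 3.29 and 7.74 CPM in Teff, the same order as Foxp3. Its batch 2 ratio had a median of 1.12 and lay above 1 in 5 of 9 Treg groups, and it was at 0 to 13.8 CPM in the CD8 libraries. The part of these overlaps in the Foxp3 values was not tested.

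Of the 6 members called higher in naive DN Tregs than in Teff, Foxp3 kept the largest share of its level in Teff. The Teff mean was 27.8% of the naive DN mean for Foxp3, against 0.427% for Il2ra, 1.7% for Ikzf2, 8.15% for Ikzf4, 13.8% for Capg and 19% for Folr4. Ikzf3 stood at 64.7% and Ikzf1 at 214%. Among 16 listed surface and effector genes of Tregs the same share ran from 0.0788% to 46.4% with a median of 4.96%, and 2 of them, Tnfrsf1b (29.7%) and Icos (46.4%), exceeded that of Foxp3. These shares are descriptions of 3 libraries against 3.

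Among the subsets, Foxp3 was lower in Ebi3 than in DN Tregs of the lymph node, with a log2 fold change of -0.88 ± 0.26 (adjusted p = 0.0222). The within-batch log2 ratios were -0.85, -0.84 and -0.79. The call was lost when batch 1 or batch 3 was left out (adjusted p up to 0.169) and in the fit without the batch block. In the naive source the Ebi3 minus DN log2 difference was -0.59 ± 0.26 (adjusted p = 0.141) and in tumours it was -0.35 ± 0.25 (adjusted p = 0.731), negative in 3 of 3 batches each time. IL10 and DN Tregs differed by -0.07 ± 0.25 in the naive source, -0.13 ± 0.25 in the lymph node and 0.26 ± 0.25 in tumours, none of which was called, and the 95% interval in the naive source was -0.57 to 0.43. No tumour against lymph node comparison of Foxp3 was called, the largest being 0.63 ± 0.26 in Ebi3 Tregs (adjusted p = 0.135).

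Among the Ikaros genes, Ikzf2 and Ikzf4 had larger log2 fold changes than Foxp3 between naive DN Tregs and Teff, Ikzf1 was lower and Ikzf3 was not called. Ikzf2 was at 319, 289 and 370 CPM in naive DN Tregs, against 9.48, 4.11 and 3.05 CPM in Teff, a log2 fold change of 5.89 ± 0.22 (adjusted p = 1.44e-16). Ikzf4 was at 77.8, 172 and 125 CPM in naive DN Tregs, against 2.92 to 17.6 CPM over the 3 Teff libraries (log2 fold change 3.51 ± 0.39, adjusted p = 5.43e-07). Ikzf1 ran the other way, at 364, 317 and 336 CPM in naive DN Tregs, against 719, 759 and 699 CPM in Teff (log2 fold change -1.06 ± 0.13, adjusted p = 1.33e-06). The groups did not overlap for any of these 3 genes. Ikzf3 was at 28.7, 84.9 and 53.6 CPM in naive DN Tregs, against 41, 38.2 and 28.9 CPM in Teff, and did not pass (log2 fold change 0.58 ± 0.24, adjusted p = 0.129).

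Il2ra gave the widest separation of all members. It was at 564, 690 and 718 CPM in naive DN Tregs, against 5.66, 1.54 and 1.22 CPM in Teff, a log2 fold change of 7.85 ± 0.34 (adjusted p = 3.88e-14). Folr4, at 894, 841 and 867 CPM in naive DN Tregs, against 180, 165 and 149 CPM in Teff, differed by 2.43 ± 0.10 (adjusted p = 1.59e-15). Capg, at 583, 740 and 771 CPM in naive DN Tregs, against 58.4, 130 and 101 CPM in Teff, differed by 2.90 ± 0.16 (adjusted p = 3.42e-13). None of these groups overlapped. Of the 8 members, 6 were higher and 1 lower in naive DN Tregs than in Teff, where 12.2% of the 12907 genes tested were called. All 8 passed in naive IL10 Tregs against Teff (32.2% of genes called) and in naive Ebi3 Tregs against Teff (29% called), with Ikzf1 the 1 member that fell each time. The members are Treg genes by choice, so these counts describe them and do not test the list. B cell genes also differed between these groups: 6 genes summed to 31 to 72 CPM in naive DN Tregs, against 0.617 to 4.21 CPM in Teff, with Pax5, Ebf1 and Blk at 0 in both. Cd79b, a chain of the B cell receptor complex, was at 29.2 to 57.3 CPM in naive DN Tregs, against 0.0682 to 2.44 CPM in Teff. The part of these genes was not tested.

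Naive IL10 Tregs carried more Ikzf2, Ikzf3 and Capg and less Ikzf1 than naive DN Tregs. Ikzf3 was at 282, 359 and 303 CPM in naive IL10 Tregs, against 28.7, 84.9 and 53.6 CPM in naive DN Tregs (log2 fold change 2.56 ± 0.25, adjusted p = 2.04e-08). Capg was at 2166, 2062 and 2172 CPM in naive IL10 Tregs, against 583, 740 and 771 CPM in naive DN Tregs (1.63 ± 0.15, adjusted p = 9.2e-09). Ikzf2 was at 706, 711 and 734 CPM in naive IL10 Tregs, against 319, 289 and 370 CPM in naive DN Tregs (1.14 ± 0.17, adjusted p = 2.18e-05). All 3 genes were higher in every IL10 library than in any DN library. Ikzf1 was at 196, 225 and 177 CPM in naive IL10 Tregs, again with no overlap with naive DN Tregs (-0.78 ± 0.13, adjusted p = 6.79e-05). These 4 members passed, against 17.8% of the 12907 genes. Il2ra (0.09 ± 0.24), Folr4 (-0.01 ± 0.10) and Ikzf4 (-0.74 ± 0.35, adjusted p = 0.154) did not pass. The 12 myeloid genes in the table (of 13 listed) summed to 35.1 to 55.1 CPM in naive IL10 Tregs, against 4.87 to 10.4 CPM in naive DN Tregs, with Csf1r, Cd14, C1qb, S100a8 and S100a9 at 0 in both groups, and their part in these results was not tested.

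Naive Ebi3 Tregs moved the same 4 members by smaller amounts relative to naive DN Tregs. The log2 fold changes were 0.92 ± 0.24 for Ikzf3, 0.90 ± 0.15 for Capg, 0.79 ± 0.17 for Ikzf2 and -0.58 ± 0.13 for Ikzf1, with adjusted p between 0.000152 and 0.00948, and 12.8% of genes were called. The myeloid sum was 14.8 to 45.8 CPM in naive Ebi3 Tregs, against 4.87 to 10.4 CPM in naive DN Tregs, and its part was not tested. Leaving out 1 batch ended 3 of these calls: Ikzf2 without batch 2 (adjusted p = 0.116), Ikzf1 without batch 3 (0.0791) and Ikzf3 without batch 1 or batch 3 (up to 0.162). Both comparisons share the naive DN libraries. Set directly against naive Ebi3 Tregs, naive IL10 Tregs had more Ikzf3, at 282, 359 and 303 CPM, against 98.4, 105 and 115 CPM (1.64 ± 0.24, adjusted p = 4.76e-05), and more Capg (0.73 ± 0.15, adjusted p = 0.00222). These 2 members passed where 5.48% of genes did, and the Capg call was lost without batch 3 (adjusted p = 0.113). Il2ra differed by 0.75 ± 0.24 (adjusted p = 0.072), at 596, 736 and 776 CPM in naive IL10 Tregs, against 398, 457 and 471 CPM in naive Ebi3 Tregs, with no overlap.

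The lymph node repeated this order of subsets. Lymph node IL10 Tregs differed from lymph node DN Tregs by 1.90 ± 0.24 in Ikzf3, 1.51 ± 0.15 in Capg, 1.10 ± 0.17 in Ikzf2, 0.36 ± 0.10 in Folr4 and -0.82 ± 0.13 in Ikzf1 on the log2 scale, and these 5 members passed where 16.2% of genes did. The Folr4 call (adjusted p = 0.0126) was lost without batch 1 or batch 2 (up to 0.208) and in the fit without the batch block. Lymph node Ebi3 Tregs differed from lymph node DN Tregs by 0.75 ± 0.17 in Ikzf2, 0.78 ± 0.15 in Capg and -0.78 ± 0.13 in Ikzf1, which with Foxp3 made 4 members called against 13% of genes. The Ikzf2 call was lost without batch 2 (adjusted p = 0.168). Ikzf3 (0.68 ± 0.24, adjusted p = 0.0551) and Il2ra (-0.71 ± 0.24, adjusted p = 0.0501) lay just outside the threshold. The myeloid sum was 30.1 to 62.4 CPM in lymph node IL10 Tregs and 22.7 to 234 CPM in lymph node Ebi3 Tregs, against 4.3 to 16.1 CPM in lymph node DN Tregs. The library with 190 CPM of Lyz2 is among the 3 lymph node Ebi3 libraries. The 6 B cell genes summed to 54.7 to 81.8 CPM in lymph node Ebi3 Tregs and 44.2 to 67 CPM in lymph node IL10 Tregs. Their sum was 18 to 54.6 CPM in lymph node DN Tregs, and Pax5 was at 0 in all 3 groups. The part of these transcripts in the results was not tested.

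In lymph node IL10 Tregs relative to lymph node Ebi3 Tregs, Ikzf3 (1.21 ± 0.24, adjusted p = 0.00168), Capg (0.73 ± 0.15, adjusted p = 0.00233) and Il2ra (0.84 ± 0.24, adjusted p = 0.04) were higher, and 5.07% of genes were called. Il2ra was at 629, 605 and 702 CPM in lymph node IL10 Tregs, against 465, 298 and 366 CPM in lymph node Ebi3 Tregs. The groups did not overlap for any of the 3 genes. All 3 calls were lost without batch 3, with adjusted p up to 0.0881 for Ikzf3 and 0.221 for Capg, and that of Il2ra also without batch 2 (up to 0.401). Il2ra was not called under library totals without TMM, without the filter or without the batch block. No member was called between lymph node and naive Tregs of the same subset, with 0.0852% of genes called in DN Tregs, 0.0542% in IL10 Tregs and 0.00775% in Ebi3 Tregs. The largest such member difference was 0.56 ± 0.24 for Ikzf3 in DN Tregs (unadjusted p = 0.0258, adjusted p = 0.602). Capg, though not called, was lower in the lymph node in each batch with no overlap in IL10 and Ebi3 Tregs. Its within-batch log2 ratios were -0.37, -0.22 and -0.08 in IL10 Tregs and -0.29, -0.14 and -0.29 in Ebi3 Tregs.

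In tumours the subsets were much closer in Ikzf2, Ikzf1 and Capg. Ikzf2 was at 667, 660 and 678 CPM in tumour IL10 Tregs and 561, 531 and 540 CPM in tumour Ebi3 Tregs, against 627, 668 and 636 CPM in tumour DN Tregs. Tumour IL10 Tregs differed from tumour DN Tregs by 0.11 ± 0.17 in Ikzf2, 0.12 ± 0.13 in Ikzf1 and 0.26 ± 0.15 in Capg on the log2 scale, none called. Ikzf3 was not called (0.77 ± 0.24, adjusted p = 0.163), but it was higher in tumour IL10 than in tumour DN Tregs in each batch, with no overlap. Capg did not overlap between these groups either. The 1 member that passed was Folr4 (0.837% of genes called), at 449, 416 and 427 CPM in tumour IL10 Tregs, against 324, 278 and 293 CPM in tumour DN Tregs (0.59 ± 0.10, adjusted p = 0.00147). That call was lost without batch 2 or batch 3 (adjusted p up to 0.0729) and in the fit without the batch block. No member passed between tumour Ebi3 and tumour DN Tregs by edgeR or DESeq2, none had an unadjusted p under 0.05, and 0.713% of genes were called. Between tumour IL10 and tumour Ebi3 Tregs, Ikzf3 was at 134, 191 and 176 CPM, against 95.4, 69.1 and 66.1 CPM (1.14 ± 0.24, adjusted p = 0.00737), and Folr4 differed by 0.62 ± 0.10 (adjusted p = 0.000829), where 2.84% of genes were called. Both were lost without batch 3 (adjusted p up to 0.457 for Ikzf3 and 0.114 for Folr4), Ikzf3 also without batch 2, and both in the fit without the batch block.

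**Figure D3:**
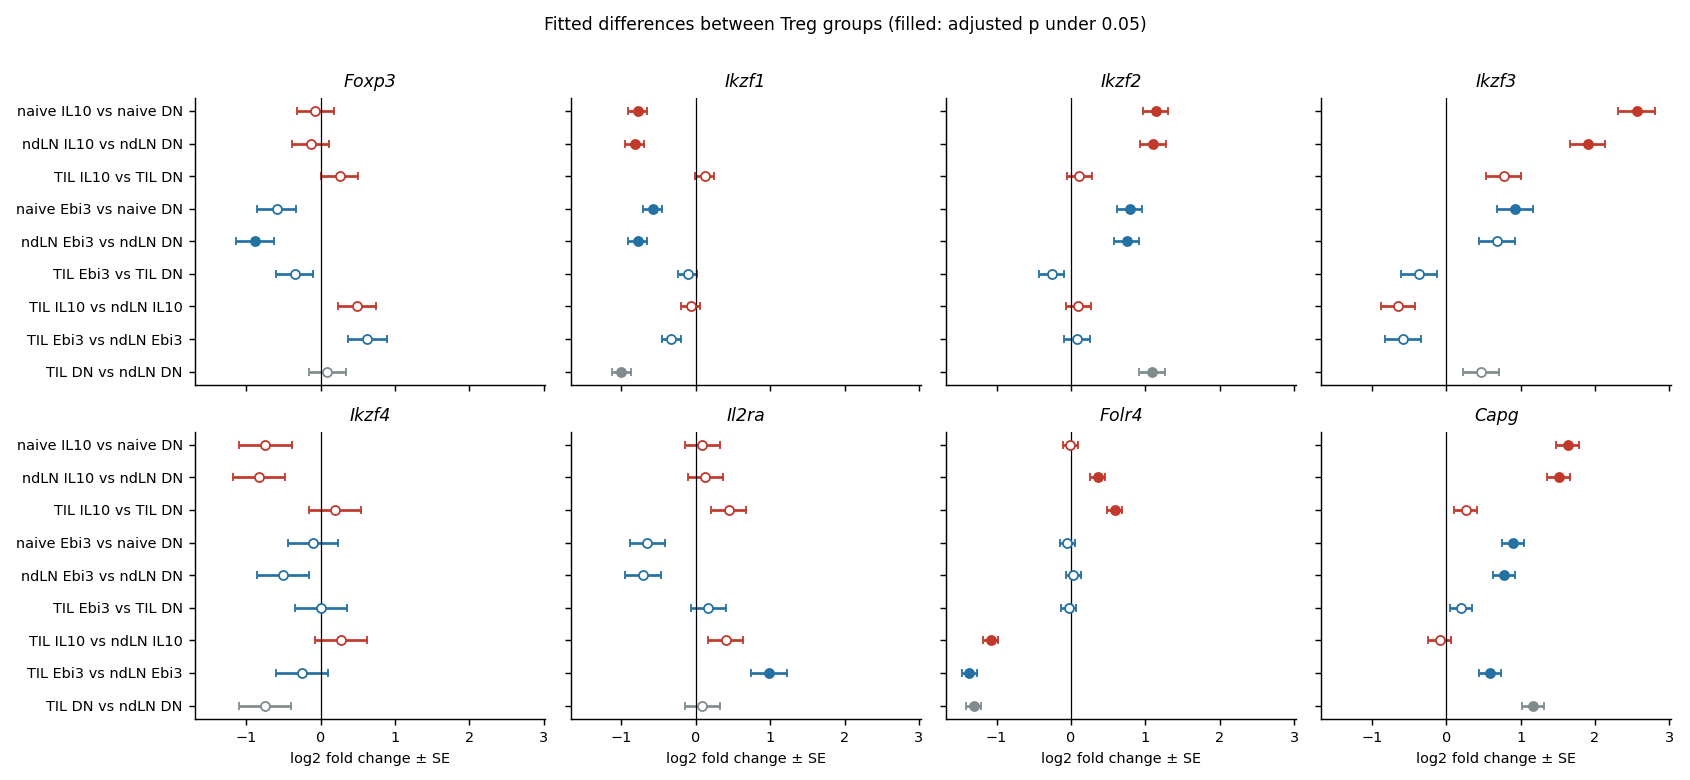
Log2 fold changes with their SE from the edgeR fit of the 30 Treg-series libraries, 1 panel per member; filled points passed an adjusted p of 0.05. For Ikzf1, Ikzf2 and Capg the IL10 and Ebi3 points against DN lie away from 0 in the naive source and lymph node and near 0 in tumours, and for Folr4 the 3 tumour against lymph node points lie at -1.08 or below.

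The tumour and lymph node difference of Ikzf2, Ikzf1 and Capg was seen in DN Tregs. Ikzf2 was at 627, 668 and 636 CPM in tumour DN Tregs, against 327, 295 and 367 CPM in lymph node DN Tregs (1.09 ± 0.17, adjusted p = 3.05e-05). Ikzf1 was at 152, 176 and 128 CPM in tumour DN Tregs, against 315, 379 and 298 CPM in lymph node DN Tregs (-1.0 ± 0.13, adjusted p = 1.85e-06). Capg was at 1280, 1278 and 1418 CPM in tumour DN Tregs, against 530, 638 and 777 CPM in lymph node DN Tregs (1.17 ± 0.15, adjusted p = 1.4e-06). None of these groups overlapped, and the 3 calls held without each batch. With Folr4 they made 4 members called, 2 higher and 2 lower, where 23.4% of genes were called. Myeloid genes moved in the same direction as Capg: 12 of 13 listed genes were in the table, and their summed level was 40.4 to 95.5 CPM in tumour DN Tregs, against 4.3 to 16.1 CPM in lymph node DN Tregs, with Csf1r, Cd14, C1qb, S100a8 and S100a9 at 0 in both groups. The 5 dendritic cell genes summed to 28.9 to 45.4 CPM in tumour DN Tregs, against 1.79 to 3.89 CPM in lymph node DN Tregs, with Itgax at 0 in both. The part of these transcripts in the differences was not tested.

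IL10 Tregs showed little of this shift in Ikzf2, Ikzf1 and Capg, and Ebi3 Tregs showed part of it. Tumour against lymph node IL10 Tregs differed by 0.10 ± 0.17 in Ikzf2, -0.07 ± 0.13 in Ikzf1 and -0.09 ± 0.15 in Capg, and Folr4 was the 1 member called (9.32% of genes). Ikzf3 and Capg, though not called, were lower in tumour IL10 Tregs in each batch with no overlap. Their within-batch log2 ratios were -1.06, -0.76 and -0.65 for Ikzf3 and -0.24, -0.12 and -0.41 for Capg. Those of Ikzf3 in Ebi3 Tregs were -0.16, -1.05 and -1.15, also uncalled and with no overlap. These CPM ratios, unlike the fits, hold no TMM scaling. Tumour against lymph node Ebi3 Tregs had 3 members called (10.3% of genes), namely Folr4, Capg (0.59 ± 0.15, adjusted p = 0.00813) and Il2ra (0.98 ± 0.24, adjusted p = 0.00761). Ikzf1 was not called, but it was lower in tumour Ebi3 Tregs in each batch with no overlap (within-batch log2 ratios -0.72, -0.40 and -0.40). Those of Ikzf2 were 0.09, -0.17 and -0.15. Il2ra was at 544, 682 and 760 CPM in tumour Ebi3 Tregs, against 465, 298 and 366 CPM in lymph node Ebi3 Tregs, with no overlap. Without batch 3 the calls of Capg (adjusted p = 0.154) and Il2ra were lost, and that of Il2ra also without batch 2 (up to 0.235). The 6 B cell genes summed to 21.8 to 33.7 CPM in tumour IL10 Tregs, against 44.2 to 67 CPM in lymph node IL10 Tregs. In Ebi3 Tregs the sums were 28.9 to 51.3 CPM in tumours, against 54.7 to 81.8 CPM in the lymph node. The part of these genes was not tested.

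The difference of differences was tested directly. The IL10 minus DN effect was smaller in tumours than in the lymph node by -0.99 ± 0.24 for Ikzf2 (adjusted p = 0.0156) and -1.25 ± 0.21 for Capg (adjusted p = 0.000509), and it was larger by 0.94 ± 0.18 for Ikzf1 (adjusted p = 0.00229), where the lymph node effect was negative. These 3 members passed, against 4.49% of genes, and Ikzf3 lay just outside (-1.12 ± 0.33, adjusted p = 0.0507). The Ikzf2 call was lost without batch 2 (adjusted p = 0.278) and without the batch block, that of Ikzf1 without batch 3 (0.191), and that of Capg held without each batch (up to 0.0481). The Ebi3 minus DN effect differed between tumour and lymph node in Ikzf2 alone (-1.01 ± 0.24, adjusted p = 0.027; 1.61% of genes called), and that call was lost without batch 2 or batch 3 (up to 0.427) and without the batch block. Ikzf1 (0.67 ± 0.18, adjusted p = 0.0622) did not pass in the Ebi3 contrast.

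Folr4 was lower in tumour than in lymph node Tregs of all 3 subsets. It was at 449, 416 and 427 CPM in tumour IL10 Tregs, against 1164, 1080 and 852 CPM in lymph node IL10 Tregs (log2 fold change -1.08 ± 0.10, adjusted p = 1.63e-08). It was at 329, 281 and 278 CPM in tumour Ebi3 Tregs, against 1104, 777 and 712 CPM in lymph node Ebi3 Tregs (-1.37 ± 0.10, adjusted p = 1.52e-10). It was at 324, 278 and 293 CPM in tumour DN Tregs, against 874, 774 and 765 CPM in lymph node DN Tregs (-1.31 ± 0.10, adjusted p = 2.23e-10). The 9 tumour libraries, at 278 to 449 CPM, all lay below the 18 other Treg libraries, at 712 CPM or more, and above the 3 Teff libraries. The 3 calls held without each batch, and the IL10 minus DN and Ebi3 minus DN effects on Folr4 did not differ between the sites (0.23 ± 0.14, adjusted p = 0.423, and -0.06 ± 0.14, adjusted p = 0.926).

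Read per kilobase of exon, so that the 4 genes can be set against each other, the Ikaros family changed in composition between the groups. In tumour DN Tregs Ikzf2 made up 53 ± 3.12% of the summed CPM per kilobase, Ikzf1 25.1 ± 3.01%, Ikzf3 11 ± 1.94% and Ikzf4 10.9 ± 2.54% (SD, n = 3). In naive DN Tregs Ikzf1 led with 51.7 ± 6.55%, ahead of Ikzf2 at 24.7 ± 3.24%, Ikzf4 at 18.1 ± 6.09% and Ikzf3 at 5.5 ± 2.57%. In Teff Ikzf1 alone made up 95.3 ± 1.56%. By the union of exons, Ikzf1 led in all libraries of naive DN Tregs, lymph node DN Tregs and Teff, and Ikzf2 in all libraries of the other 7 Treg groups. The summed level itself varied less, at 91.8 to 117 CPM per kilobase in the tumour groups, 145 in naive IL10 Tregs, 114 in naive DN Tregs and 132 in Teff. In the IL10 Tregs of the naive source and the lymph node the leader depended on the gene length used. In naive IL10 Tregs Ikzf2 had 42.9% and Ikzf3 24.8% by the union of exons, but Ikzf3 had 39.7% and Ikzf2 35.9% by the longest coding transcript, with Ikzf3 leading in 3 of 3 libraries. In lymph node IL10 Tregs Ikzf3 had 38.9% and Ikzf2 36.9% by the longest coding transcript, with Ikzf3 leading in 2 of 3 libraries. In the other 8 groups of the Treg series the leader was the same by both lengths.

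**Figure D4:**
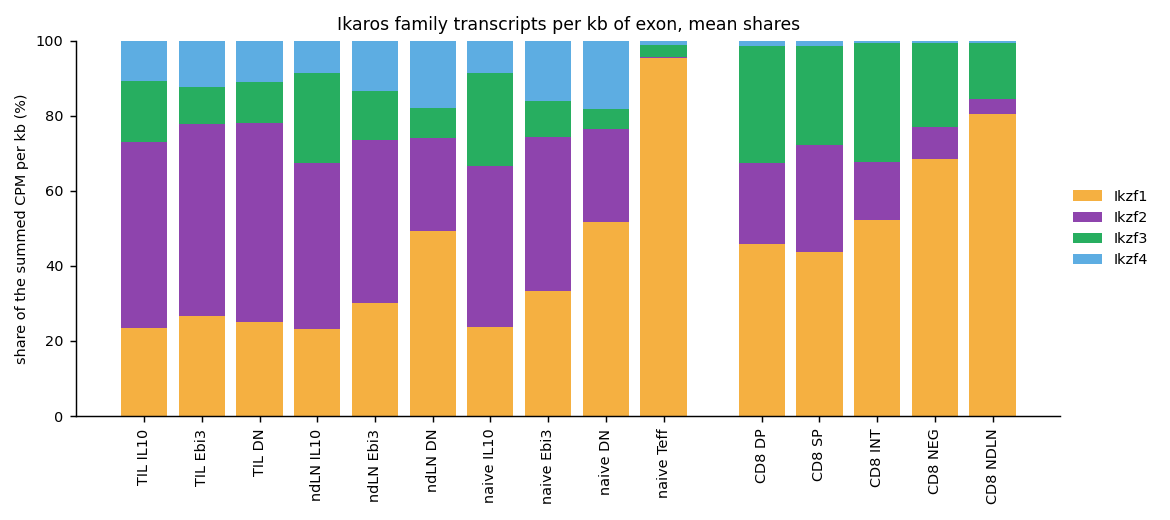
Mean share of Ikzf1, Ikzf2, Ikzf3 and Ikzf4 in their summed CPM per kilobase of exon (union of exons), as percent, for the 10 Treg-series groups (3 libraries each) and the 5 CD8 populations (12 libraries each). Ikzf1 makes up 95.3% in Teff and 80.6% in lymph node CD8 cells, and Ikzf2 makes up 53% in tumour DN Tregs.

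Of the 16 listed surface and effector genes, all 16 were higher in naive DN Tregs than in Teff, with a median log2 fold change of 4.35 beside 0.03 over all genes. They included Lrrc32, which presents latent TGF-beta (10.24 ± 0.40), Entpd1, the ectonucleotidase CD39 (7.64 ± 0.29), and Socs2, a cytokine signalling suppressor (7.0 ± 0.43). In naive IL10 Tregs relative to naive DN Tregs 12 were higher and 2 lower (median 2.13). Fgl2, a secreted fibrinogen-like effector (5.86 ± 0.23), Klrg1, a lectin-like receptor of differentiated cells (5.56 ± 0.79), and Itgae, the CD103 integrin chain (4.18 ± 0.22), were among those that rose, and Gpr83 (-2.80 ± 0.53) and Lrrc32 (-1.09 ± 0.22) were those that fell. In tumour IL10 Tregs relative to tumour DN Tregs 4 were higher and 1 lower (median 0.58). In tumour DN Tregs relative to lymph node DN Tregs 11 were higher and 2 lower (median 1.64), led by Fgl2 (5.33 ± 0.22), with Gpr83 lower (-5.04 ± 0.59). The shares of all genes called were 12.2%, 17.8%, 0.837% and 23.4% in these 4 comparisons, in the order given. Besides the myeloid sums given above, these were 4.87 to 10.4 CPM in naive DN Tregs, against 6.47 to 11.1 CPM in Teff, and 31.2 to 70.5 CPM in tumour IL10 Tregs, against 40.4 to 95.5 CPM in tumour DN Tregs, overlapping both times.

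Of 27 listed partners, inducers and modifiers of Foxp3, 6 were higher and 6 lower in naive DN Tregs than in Teff (median -0.17), beside 12.2% of all genes called. The genes that fell included Tcf7 (-1.42 ± 0.32), Lef1 (-1.34 ± 0.13) and Satb1 (-1.18 ± 0.21), factors of resting T cells. Those that rose were led by Nr4a2 (6.95 ± 1.42), Irf4, a factor of activated T cells (1.72 ± 0.26), and Rel (1.41 ± 0.34). In naive IL10 Tregs relative to naive DN Tregs 4 were higher and 6 lower (17.8% of all genes called), with Satb1 at -5.42 ± 0.27, Tcf7 at -3.14 ± 0.35 and Bach2, a repressor of effector genes, at -3.09 ± 0.56. In tumour DN Tregs relative to lymph node DN Tregs 5 were higher and 11 lower (23.4% of all genes called), and Bach2 (-3.50 ± 0.58), Tcf7 (-3.19 ± 0.35) and Satb1 (-2.21 ± 0.22) led the lower ones. In tumour IL10 Tregs relative to tumour DN Tregs Tcf7 alone passed (-2.69 ± 0.37, adjusted p = 0.000294), where 0.837% of all genes did.

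Of 14 listed genes for the corepressor subunits that Ikaros proteins recruit and for the family member Ikzf5, 1 passed in naive DN Tregs relative to Teff (12.2% of all genes called), 2 in naive IL10 relative to naive DN Tregs (17.8%) and 4 in tumour relative to lymph node DN Tregs (23.4%), shares near those of all genes. Hdac1, a deacetylase, was the 1 called in naive DN Tregs relative to Teff (0.39 ± 0.11, adjusted p = 0.0239). Hdac1 (-0.39 ± 0.11) and Chd4, the remodelling helicase of the NuRD complex (-0.37 ± 0.12), were lower in naive IL10 than in naive DN Tregs. In tumour DN Tregs relative to lymph node DN Tregs 3 were lower and 1 higher, with Mbd3, a NuRD subunit, at -1.23 ± 0.27. The list's median log2 fold change lay between -0.23 and 0.29 in the 18 Treg-series comparisons.

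Of 11 listed genes of interleukin-2 signalling, 4 were higher and 2 lower in naive DN Tregs than in Teff (12.2% of all genes called). Cish, a STAT5 target that restrains the receptor (4.40 ± 0.19), and Il2rb, the beta chain of the receptor (4.36 ± 0.12), rose beside Il2ra, while Il7r, the interleukin-7 receptor chain, fell (-1.92 ± 0.38). In naive IL10 Tregs relative to naive DN Tregs 1 was higher and 4 lower (17.8% of all genes called), and Bcl2, a survival factor, had the largest change (-3.84 ± 0.42). Bcl2 was also lower in tumour DN Tregs than in lymph node DN Tregs (-4.08 ± 0.43), where 4 genes of the list were higher and 3 lower (23.4% of all genes called). In tumour Ebi3 Tregs relative to lymph node Ebi3 Tregs, where Il2ra rose, Cish (1.37 ± 0.16), Jak3, the kinase of the gamma chain (0.81 ± 0.18), and Il2rb (0.76 ± 0.10) rose as well.

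Genes whose group means followed each member most closely were taken over the 10 Treg-series groups among 9513 genes, by Pearson's r of log2(CPM + 1). They were Samhd1 (0.935), Socs2 (0.933) and Il10rb (0.931) for Foxp3, Coro2a (0.996), Il2rb (0.990) and Socs2 (0.988) for Il2ra, and Dennd5a (0.995), Nrn1 (0.989) and Cd38 (0.985) for Ikzf2. For Capg they were Fam129a (0.997), Osbpl3 (0.994) and Cd48 (0.986), for Ikzf4 Lrrc32 (0.974), Ccdc109b (0.963) and Lysmd2 (0.956), and for Ikzf3 Gpld1 (0.979), B4galnt4 (0.976) and Prune2 (0.966). For Ikzf1 they were Poc1b, Dnm2 and A530088E08Rik (0.991 each), and for Folr4 2310001H17Rik (0.963), Prnp (0.954) and Fam53b (0.947). All groups share the same 3 batches and Teff stands apart from the rest, so these are descriptions. Among the 9 Treg groups without Teff, r was 0.86 between Foxp3 and Il2ra, -0.17 between Foxp3 and Ikzf2, -0.80 between Ikzf1 and Ikzf2 and 0.91 between Ikzf1 and Ikzf4.

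In the CD8 libraries Foxp3 was at or near 0. It had no count in 32 of 60 libraries, 3 counts or fewer in 39, and at most 3.08 CPM (85 counts, in Ebi3L INT replicate 3), against 29.1 to 157 CPM in the Treg libraries. The 5 highest libraries, at 0.949 to 3.08 CPM, had Cd4 at 0 to 0.173 CPM. No fold change of Foxp3 is given for these cells, since most libraries lie at or under 3 counts. Ikzf4 was also low, at 0 to 14.3 CPM in CD8 libraries, beside 44 to 172 CPM in Tregs. The other members were well above the counting limit in most CD8 libraries.

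Ikzf1 was lower in the populations with more PD1 and TIM3. Its lowest, median and highest levels were 119, 156 and 224 CPM in DP, 132, 189 and 262 CPM in SP, 177, 234 and 329 CPM in INT and 318, 412 and 475 CPM in NDLN cells (12 libraries each), and in NEG cells the lowest was 266 CPM and the median 338 CPM. The log2 fold change was -0.48 ± 0.09 in INT relative to NEG cells (adjusted p = 7.88e-05), -0.34 ± 0.09 in SP relative to INT cells (adjusted p = 0.00198), -0.14 ± 0.09 in DP relative to SP cells (adjusted p = 0.269) and -0.97 ± 0.09 in DP relative to NEG cells (adjusted p = 2.64e-13). No DP library reached the lowest NEG library. In NEG relative to NDLN cells it was -0.24 ± 0.09 (adjusted p = 0.0487), a call that was lost in 9 of 12 fits that left out 1 numbered set (adjusted p up to 0.166). The SP call was lost without Il10 replicate 1 (adjusted p = 0.054).

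Il2ra and Capg were higher in those populations. Il2ra was at 30.3, 112 and 312 CPM (lowest, median, highest) in DP, 30, 83.7 and 155 CPM in SP, 4.87, 24.6 and 63.4 CPM in INT, 0, 7.43 and 21.2 CPM in NEG and 0, 1.99 and 18.4 CPM in NDLN cells. Capg was at 193, 461 and 843 CPM in DP, 193, 358 and 673 CPM in SP, 69.2, 195 and 463 CPM in INT, 18.4, 39 and 80.7 CPM in NEG and 18.4, 44 and 105 CPM in NDLN cells. DP and NEG libraries did not overlap for either gene, with log2 fold changes in DP relative to NEG cells of 3.73 ± 0.54 for Il2ra (adjusted p = 1.56e-07) and 3.33 ± 0.24 for Capg (adjusted p = 3.51e-15). Capg did not pass between NEG and NDLN cells (0.17 ± 0.21), and its first rise was in INT relative to NEG cells (2.11 ± 0.22, adjusted p = 6.8e-09). Il2ra also rose in SP relative to INT cells (1.78 ± 0.48, adjusted p = 0.00448), in INT relative to NEG cells (1.5 ± 0.48, adjusted p = 0.0348) and in NEG relative to NDLN cells (1.71 ± 0.52, adjusted p = 0.0195). The last call turned to -0.99 without Il10 replicate 2 and to -0.32 in the 15 yfp libraries alone, and that in INT cells was lost without any of 7 numbered sets (adjusted p up to 0.127). Genes of other cell types moved along the same sort. The myeloid genes (12 of 13 in the table) summed to at most 42.9 CPM in DP (mean 24.8 CPM), 14.1 to 92.5 CPM in SP, 8.37 to 56.1 CPM in INT, 4.73 to 29.4 CPM in NEG and 2.84 to 18.8 CPM in NDLN cells, with S100a9 at 0 in DP, INT, NEG and NDLN cells. The 5 dendritic cell genes summed to 25.4 to 103 CPM in DP, 19.6 to 64.5 CPM in SP, 9.49 to 121 CPM in INT, 5.65 to 58.6 CPM in NEG and a mean of 5.4 CPM in NDLN cells, with Siglech at 0 in DP and SP cells. Of the B cell genes, 6 summed to 0.195 to 22.3 CPM in DP, 20.2 to 65.3 CPM in NEG and 39.6 to 102 CPM in NDLN cells, with Pax5 at 0 in all 60 libraries. The 4 natural killer genes summed to 28.2 to 171 CPM in NEG cells, against 0.052 to 16.3 CPM in NDLN cells. Their sums were 26.2 to 189 CPM in DP, 18.4 to 166 CPM in SP and 19.6 to 86.1 CPM in INT cells. Ncr1 and Klra8 were at 0 in DP, SP and NDLN cells. The part of these transcripts in the population differences was not tested. The medians of Il2ra in the CD8 populations lay below every Treg library, the lowest of which had 298 CPM.

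**Figure D5:**
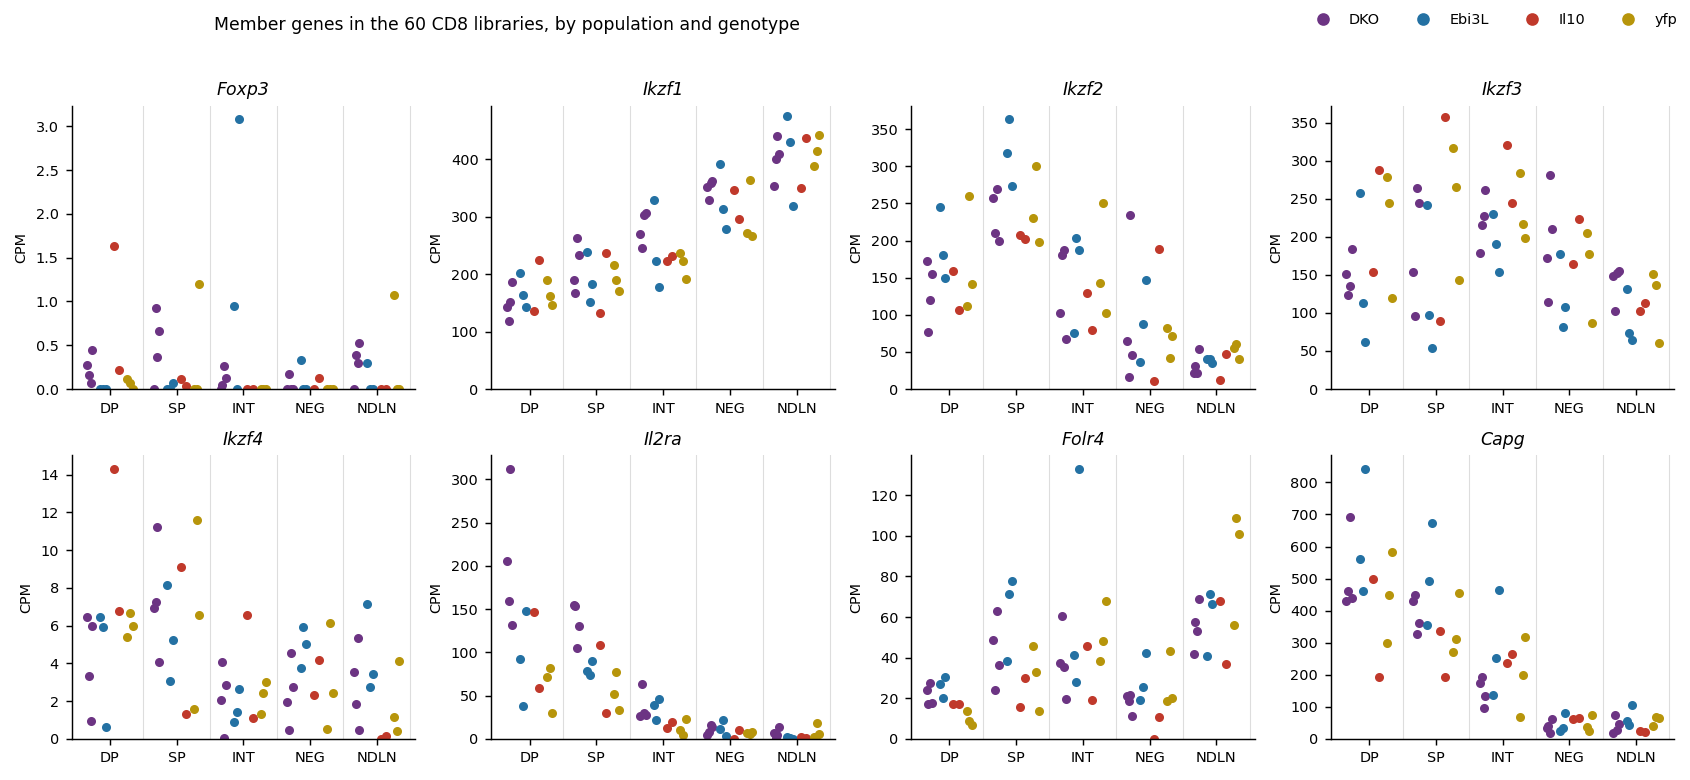
Levels of the 8 genes in the 60 CD8 libraries, in CPM of the library total on linear axes, with 1 point per library, the 5 populations across each panel and genotypes by colour. Ikzf1 is lowest in DP and highest in NDLN cells, Il2ra and Capg are highest in DP cells, and Foxp3 is at most 3.08 CPM.

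Ikzf2 had its highest median in SP cells and Ikzf3 in INT cells. Ikzf2 was at 76.7, 152 and 260 CPM (lowest, median, highest) in DP, 198, 245 and 364 CPM in SP, 66.9, 136 and 251 CPM in INT, 10.9, 67.7 and 234 CPM in NEG and 12.5, 40.5 and 60.7 CPM in NDLN cells. It rose in NEG relative to NDLN cells (1.21 ± 0.33, adjusted p = 0.0104) and in DP relative to NEG cells (0.96 ± 0.33, adjusted p = 0.0139). The first call was lost without Il10 replicate 2 (adjusted p = 0.153) and the second without Il10 replicate 1 or yfp replicate 2 (up to 0.172), and the steps to INT, SP and DP cells did not pass (adjusted p 0.137, 0.0692 and 0.217). Ikzf3 rose in NEG relative to NDLN cells (0.61 ± 0.15, adjusted p = 0.0025) and in INT relative to NEG cells (0.53 ± 0.15, adjusted p = 0.0118) and fell in SP relative to INT cells (-0.45 ± 0.15, adjusted p = 0.0202). The rise in INT cells was lost without Il10 replicate 1 (adjusted p = 0.117) and the fall in SP cells without any of 5 numbered sets (up to 0.534). Ikzf4 rose in NEG relative to NDLN cells by 1.62 ± 0.57 (adjusted p = 0.0483), a call lost in 8 of 12 such fits (up to 0.198).

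Folr4 did not follow the sort. It was at 6.91, 17.3 and 30.4 CPM (lowest, median, highest) in DP, 13.9, 37.2 and 77.7 CPM in SP, 19.2, 39.9 and 133 CPM in INT, 0, 19.7 and 43.1 CPM in NEG and 37, 62 and 109 CPM in NDLN cells. It fell in NEG relative to NDLN cells (-1.86 ± 0.35, adjusted p = 0.000154), rose in INT relative to NEG cells (1.43 ± 0.35, adjusted p = 0.0042) and fell in DP relative to SP cells (-1.0 ± 0.34, adjusted p = 0.0317). Both calls with NEG cells held without each set, but the size of the first ranged from -4.46 to -1.45 and that of the second from 0.96 to 4.04. The last call was lost without any of 7 numbered sets (adjusted p up to 0.0791). DP and NEG cells differed by 0.10 ± 0.34 (not called), but by -1.45 in the yfp libraries alone (adjusted p = 0.0235). Folr4 had no count in 1 library, Il10 NEG replicate 1, and Il2ra had none in that library and in Ebi3L NDLN replicate 3.

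Of the 7 members other than Foxp3, 6 passed in NEG relative to NDLN cells (14% of 14734 genes called), 5 in INT relative to NEG cells (11.7%), 4 in SP relative to INT cells (26.9%), 1 in DP relative to SP cells (18.5%) and 4 in DP relative to NEG cells (53.9%). In the 15 yfp libraries alone the first 4 counts were 0, 1, 0 and 0. Per kilobase of exon, Ikzf1 led the Ikaros family in 11 of 12 DP libraries, 11 of 12 SP libraries and all INT, NEG and NDLN libraries. Its share was 45.8 ± 5.36% in DP, 43.6 ± 4.37% in SP, 52.3 ± 6.33% in INT, 68.5 ± 8.29% in NEG and 80.6 ± 3.96% in NDLN cells (SD, n = 12 each). By the longest coding transcript Ikzf3 led instead in DP (47.6% against 33.5% for Ikzf1), SP and INT cells. Over the 20 CD8 groups, among 9465 genes, the closest patterns were Nek6 (r = 0.965), Ero1l (0.951) and Cyfip1 (0.949) for Il2ra, Siah1a (0.982), Tspan9 (0.973) and Kcnc1 (0.970) for Ikzf1, Lxn (0.980), Gm17745 (0.965) and Ndfip1 (0.963) for Capg, and Ap3s1 (0.953), Prdx4 (0.951) and Gzmk (0.949) for Ikzf2. They were Lgals3bp (0.895), Myo1f (0.878) and Ahnak (0.873) for Ikzf3 and Gm4944 (0.879), Casp6 (0.878) and Fam104a (0.865) for Folr4.

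Of the listed Treg surface and effector genes, 10 of 16 were higher and 2 lower in DP relative to NEG CD8 cells, with a median log2 fold change of 2.03. Il1rl1, the interleukin-33 receptor (6.46 ± 1.02), Tnfrsf4, the costimulatory receptor OX40 (6.37 ± 0.51), and Lrrc32 (5.78 ± 1.56) led, while Itgae (-4.03 ± 0.54) and Nt5e, the CD73 ectonucleotidase (-3.50 ± 0.43), fell. Of the interleukin-2 genes 3 were higher and 6 lower, with Il7r at -5.24 ± 0.33 and Bcl2 at -3.49 ± 0.22 beside Cish at 1.18 ± 0.37. Of the partners of Foxp3 5 were higher and 13 lower, led by Tcf7 (-7.43 ± 0.49), and of the Ikaros corepressor genes 6 were higher and 3 lower, led by Hdac1 (1.29 ± 0.08). These counts stand beside 53.9% of all genes called in this comparison and were not tested as lists.

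No member passed between a Treg-specific genotype and yfp in any CD8 population by edgeR, and 13 of the 105 tests of the 7 members other than Foxp3 had an unadjusted p under 0.05 (12.4%, beside 4.53% of the tests over all genes and 1.21% to 7.34% in single comparisons). These tests share libraries. The yfp and Ebi3L libraries were in batches 1 and 3, and the DKO and Il10 libraries in batches 1 and 2, so batch 2 held no yfp library. The fits had batch but not the labelled set as a term, and CPM levels and overlaps here and below are adjusted for neither. The part of batch or labelled set in them was not tested. In DP, SP, NEG and NDLN cells 0% of genes were called for DKO and for Ebi3L, as for Il10 in DP, SP and NEG cells, and for Il10 in NDLN cells the share was 0.00811%. In INT cells it was 0.00775% for each of the 3 genotypes. Of the 105 combinations of the 7 members other than Foxp3 with the 15 comparisons, 12 had genotype and yfp libraries that did not overlap, 8 of them higher and 4 lower. That is 11.4%, near the share over all 11240 genes with a mean of 1 CPM or more in CD8 cells, where 16964 of 168600 such combinations did not overlap (4.67% to 20% in single comparisons). DESeq2 called 1 of them, Folr4 in DP cells of Ebi3L mice (1.53, adjusted p = 0.0113).

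Il2ra was the member that most often stood apart, in DKO relative to yfp cells of 3 populations. In DP cells it was at 205, 159, 312 and 132 CPM in DKO, against 71.5, 82.2 and 30.3 CPM in yfp libraries (log2 fold change 1.51 ± 0.59, unadjusted p = 0.0326, adjusted p = 0.935). In SP cells it was at 155, 153, 105 and 130 CPM in DKO, against 52.3, 77.4 and 32.8 CPM in yfp libraries (0.97 ± 0.32, unadjusted p = 0.0107, adjusted p = 0.543). In INT cells it was at 26.7, 63.4, 29.4 and 27.3 CPM in DKO, against 9.59, 4.87 and 22.5 CPM in yfp libraries (1.71 ± 0.54, unadjusted p = 0.00773, adjusted p = 0.768). Each DKO library was above every yfp library in these 3 populations, and none of the differences passed over all genes. The libraries of the 3 populations carry the same replicate numbers, and whether they came from the same mice is not stated. Over all 11240 genes with a mean of 1 CPM or more, 8.75% in DP, 7.65% in SP and 6.79% in INT cells had DKO and yfp libraries that did not overlap. In NEG and NDLN cells the groups overlapped. In the Ebi3L libraries Il2ra was at 92.5, 37.9 and 148 CPM in DP cells and overlapped with yfp (0.91 ± 0.67, adjusted p = 0.919). The CD4 T cell list (Cd4, Zbtb7b and Cd40lg) summed to 7.89 to 65.1 CPM in DKO DP, against 2.51 to 5.9 CPM in yfp. In SP cells it was at 17.1 to 42 CPM, against 4.65 to 7.94 CPM. Cd4 was at most 1.12 CPM in these DKO libraries. The natural killer list was lower in DKO, at 30.5 to 81.9 CPM against 97.4 to 189 CPM in DP cells. It was at 25.4 to 37.3 CPM against 59.9 to 166 CPM in SP cells. Both lists overlapped in INT cells. Their part was not tested.

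Folr4 in DP cells was higher in all 3 genotypes than in yfp. It was at 24.2, 16.9, 27.7 and 17.5 CPM in DKO, 27, 20.1 and 30.4 CPM in Ebi3L and 16.9 and 17.1 CPM in Il10 libraries, against 13.6, 8.87 and 6.91 CPM in yfp libraries. The log2 fold changes were 1.07 ± 0.34 in DKO (adjusted p = 0.835), 1.53 ± 0.36 in Ebi3L (adjusted p = 0.716) and 0.81 ± 0.42 in Il10 cells (adjusted p = 1), all against the same 3 yfp libraries. None overlapped with yfp and none passed, and over all 11240 genes 8.75%, 7.39% and 20% did not overlap in these 3 comparisons. The other combinations without overlap were Ikzf1 in DKO INT cells, Ikzf4 in Il10 DP cells (all higher than yfp), Folr4 in Il10 NEG cells, Ikzf4 and Capg in Il10 NDLN cells and Il2ra in Ebi3L NDLN cells (all lower).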

How the data were processed

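RNA was sequenced from sorted T cells in 90 libraries, and the authors deposited raw read counts per gene for 23420 genes. The submitters' processing notes name STAR, featureCounts of Subread, limma and the mm10 build (GRCm38), with no versions; strand setting and annotation release are not given in these sources.

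From these counts, levels were computed as CPM of the library total. Differences were tested with edgeR 4.0.16 in R 4.3.3 (TMM, filterByExpr, robust quasi-likelihood test, Benjamini-Hochberg adjustment over all genes, threshold 0.05), and the SE is the log2 fold change divided by the square root of F. The Treg fit held 30 libraries with batch as a block, the CD8 population fit 60 libraries averaged over genotypes, and each genotype fit the 12 libraries of 1 population, both with batch as a term. In all, 40 comparisons were made. The script was tested on simulated data. Alternatives were library totals without TMM, DESeq2 1.42.0, no filter, no batch block or term, the numbered set (genotype and replicate number) as block, the yfp libraries alone, all CD8 libraries, and leaving out batches, numbered sets or libraries.

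The label's replicate number is the batch in the Treg series: same-batch deviations correlated in all 135 pairs (median 0.26, lowest 0.11), against a median of -0.21 in 270 other pairs. Of 95 pairs of libraries none was alike within sampling noise. The labels do not state separate animals for the libraries; p-values then reflect sample-to-sample spread, which may be technical. Library totals were 9.73 to 47.7 M counts. Intervals and the 3-count floor cover counting error only.

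The members and lists were chosen with earlier results of these data known. Results for the 8 members were drawn from every comparison, but not all of them are printed, and Foxp3 has no fold change in CD8 cells. Up to 3 called genes of each list were taken per direction by largest fold change, with the 3 genes closest to each member by correlation. Sequences and coordinates are from RefSeq, GRCm38.p6.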

Additional observations from a re-analysis of the deposited data

Results flagged for a closer look

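The effect of sorted subset differed between tumour and lymph node in 4 tests of the difference itself. The IL10 minus DN effect differed by -0.99 ± 0.24 for Ikzf2, 0.94 ± 0.18 for Ikzf1 and -1.25 ± 0.21 for Capg (log2, tumour minus lymph node), and the Ebi3 minus DN effect by -1.01 ± 0.24 for Ikzf2.

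The 8 members were checked for a library far from the others in the 5 DKO populations, the groups with 4 libraries. Of these 40 checks, where chance flags about 1 in 20, 4 stood out. Foxp3 in NEG cells was at 0.17 CPM in replicate 2 (4 counts) and at 0 in the other 3. With 3 libraries at 0 any other value would stand out, so this check cannot mark an unusual library. Ikzf3 in NDLN cells was at 102 CPM in replicate 2, against 148 to 155 CPM in the others. Il2ra in INT cells was at 63.4 CPM in replicate 2, against 26.7 to 29.4 CPM in the others. Capg in DP cells was at 691 CPM in replicate 3, against 429 to 461 CPM in the others. Replicate 2 is the 1 DKO library from batch 2, and the part of the batch was not tested.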

How the results depend on the processing

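Of 60 called member results in the Treg series, 41 stayed called when each batch was left out and 50 under every other alternative; of 20 in the CD8 populations, 9 and 5 did. Without the replicate block (batch), 150 of 160 Treg member results kept their call and 10 lost it, and no member was called in tumour IL10 against DN (0), tumour IL10 against Ebi3 (0) or the Ebi3 difference (0). Under library totals without TMM, 2 members were called in tumour against lymph node IL10 Tregs, 5 in Ebi3 Tregs and 2 in DP against SP cells, and DESeq2 called 2 in the Ebi3 difference. With no filter, 4 members were called in DP against SP cells, and against yfp 1 in NDLN Il10, NEG DKO, INT DKO, INT Ebi3L, INT Il10 and SP DKO and 2 in NEG Il10; DESeq2 called 1 in DP Ebi3L cells. With the numbered set as replicate block, 33 of 35 population results were kept and 2 lost, Il2ra in INT against NEG cells (adjusted p = 0.0538) and Ikzf4 in NEG against NDLN cells (adjusted p = 0.0693). All 60 CD8 libraries correlated best with their own number. Deviations of same-numbered libraries had a median correlation of 0.32 (over 0.1 in 105 of 120 pairs), against a median of -0.12 in 260 other pairs. Whether same-numbered libraries came from the same mice is not stated, and the main population fit did not block on the number. In the 15 yfp libraries alone the members called were 0 in NEG against NDLN, 1 in INT against NEG, 0 in SP against INT and 0 in DP against SP cells; Il2ra turned to -0.32 in NEG against NDLN cells (adjusted p = 0.916) and Folr4 to -1.45 in DP against NEG cells (adjusted p = 0.0235), and Il2ra turned to -0.99 without Il10 replicate 2 (adjusted p = 0.868), with -0.99 to 2.44 over the sets left out. The cause was not tested. Leaving out 1 batch or set gave 3 to 5 members in NEG against NDLN, 3 to 6 in INT against NEG, 1 to 4 in SP against INT, 0 to 1 in DP against SP and 3 to 5 in DP against NEG cells. It gave 2 to 4 in naive Ebi3 against DN, 1 to 3 in naive IL10 against Ebi3, 0 to 4 in lymph node IL10 against Ebi3, 0 to 1 in tumour IL10 against DN, 0 to 2 in tumour IL10 against Ebi3, 1 to 2 in tumour against lymph node IL10, 1 to 4 in tumour against lymph node Ebi3, 0 to 3 in the Ebi3 difference, and 0 to 2 in NEG Il10 against yfp. Counts of genes called moved by over 1.5 times without the replicate block in 18 Treg comparisons (857 genes without it and 1575 with it in naive DN against Teff), with DESeq2 in 8 Treg (16 to 906 genes) and 15 genotype comparisons (38 to 171), with no filter in 14 genotype comparisons (4 to 259), and in the yfp libraries alone in 5 population comparisons (120 to 4247). Ikaros shares by the longest coding transcript were added after seeing the data.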
